A study of Mus musculus with 6 samples.

Results

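The cytosolic heat-shock chaperones and chaperonins were followed as 33 listed genes: 7 stress-inducible members, 13 constitutive cytosolic members, the regulator Hsf1, 4 mitochondrial members and the 8 subunits of the cytosolic chaperonin CCT. They were found by symbol among the 41669 gene rows of a single count table, where 32 of them had a row; Cct6a was not analysed here. Levels are given in CPM, the estimated count of a gene divided by the total of its library and multiplied by 1000000. Hsp90aa1, an HSP90 gene that stress can induce, had the highest level of the 32 genes in every library, also per kilobase of transcript. Most of the other stress-inducible members lay near the bottom, and the CCT subunits covered a wide range. No member passed the test of females against males across all genes.

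Chaperones bind proteins that are not yet folded or have lost their fold. HSP70 proteins work with J-domain partners (the Dnaj genes) and nucleotide exchange factors, HSP90 finishes client proteins with the help of cochaperones, and CCT is a closed double ring of related subunits that folds actin, tubulin and other proteins. Each cytosolic class has members made at all times and, for HSP70 and HSP90, members whose genes the heat shock factor HSF1 switches on through heat shock elements when proteins misfold. An activated B cell grows, divides and begins to secrete antibody, which raises its need for protein folding.

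Each library held the RNA of B cells that a positive-selection column had retained from the spleen of 1 NZB/W F1 mouse, a hybrid with a lupus-like disease, at its late stage. The cells had then been cultured for 24 h in the presence of CpG, DNA that activates B cells through Toll-like receptor 9. The groups were 3 females and 3 males, with 1 library per mouse. Strain, disease stage, CpG and culture time were the same in both groups, so neither stimulation nor disease varied, and the labels used here give no ages. A lower value in such a bulk library can come from fewer cells of a type or from less RNA per cell, and these cannot be told apart.

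Library totals ran from 24089561 to 35659883 estimated counts, so that 3 counts correspond to 0.0841 to 0.125 CPM. Female replicate 3 stood apart: its TMM scaling factor was 0.816, against 0.993 to 1.07 in the other 5. The test of the members, their signs, the sex difference by GC content and the spread between mice are also given without it. Levels by role, summed levels, the relation of level to GC content and the further gene lists include it throughout. Summed B cell markers lay between 2232 and 2468 CPM in every library. Ms4a1 ranged from 1424 to 1658 CPM, whereas Cd79a ranged from 4.61 CPM in female replicate 3 to 29.4 CPM in female replicate 1. Macrophage markers summed to 5.57 to 12.6 CPM in females and 2.49 to 3.63 CPM in males. On TMM-scaled CPM, 3 of the 5 tested did not overlap between the sexes, beside 9% of all tested genes. In edgeR, all 5 were higher in females, 3 had an unadjusted p under 0.05 (2.89% of all genes) and 0 were called. Lyz2 came closest, at a log2 fold change of 3.15 and an adjusted p of 0.0837. The part of these markers in the chaperone values was not tested. T cell, neutrophil, NK cell, erythroid and dendritic cell markers each summed to at most 9.45 CPM in any library, and Elane, Camp, Ncr1, Nkg7, Prf1 and Hba-a2 were at 0 throughout.

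The heat shock element was searched in the 250 bases before the RefSeq gene starts (GRCm38.p6), because it is the sequence through which HSF1 acts. The motif was GAANNTTC or TTCNNGAA. Each of these letter strings reads the same on both strands, so 1 search covers both. Matches may overlap. Promoters were on hand for 27 of the 33 genes. Hsp90aa1, Hsp90ab1, Hspa8, Hspa9, Hsf1 and Cct4 had no entry. The 4 sequences below run 5′ to 3′ on the strand of the gene, end at the base before its start, and have the motif in capitals. Hspa1a and Hspa1b, the paired inducible HSP70 genes, lie at chr17:34972157-34972406 and chr17:34959239-34959488 (both minus strand), Hspb1, a small heat-shock protein, at chr5:135887669-135887918 (plus strand), and Hspa4, a constitutive HSP110-type exchange factor shown for contrast, at chr11:53300480-53300729 (minus strand).
Hspa1a: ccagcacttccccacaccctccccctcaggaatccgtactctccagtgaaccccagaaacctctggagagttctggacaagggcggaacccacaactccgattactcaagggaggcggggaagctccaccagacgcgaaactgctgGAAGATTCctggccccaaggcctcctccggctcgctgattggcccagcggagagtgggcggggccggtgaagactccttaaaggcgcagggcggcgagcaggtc
Hspa1b: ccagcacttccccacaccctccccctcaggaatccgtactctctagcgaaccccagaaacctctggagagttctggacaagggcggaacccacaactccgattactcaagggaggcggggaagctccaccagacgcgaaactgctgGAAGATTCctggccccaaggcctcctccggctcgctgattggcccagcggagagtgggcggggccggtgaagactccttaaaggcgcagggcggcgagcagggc
Hspb1: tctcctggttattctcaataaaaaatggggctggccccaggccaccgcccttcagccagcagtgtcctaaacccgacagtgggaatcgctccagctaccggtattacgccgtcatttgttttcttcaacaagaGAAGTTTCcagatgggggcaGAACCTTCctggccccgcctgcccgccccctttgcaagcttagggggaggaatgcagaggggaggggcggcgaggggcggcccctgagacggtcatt
Hspa4: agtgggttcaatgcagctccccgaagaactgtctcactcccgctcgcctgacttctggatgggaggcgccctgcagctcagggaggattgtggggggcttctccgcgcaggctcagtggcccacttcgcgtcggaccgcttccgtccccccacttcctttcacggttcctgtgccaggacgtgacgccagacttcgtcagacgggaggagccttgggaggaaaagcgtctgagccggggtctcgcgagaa

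Hspa1a and Hspa1b had the same base at 247 of the 250 positions (98.8%), and both held 1 motif, which began at position -104 from the start. Hspb1 held 2 motifs, the first of them at -117, and Hspa4 held none. Over all members with a promoter, the motif was present in 11 of 27 (40.7%): 4 of 6 stress-inducible, 3 of 11 constitutive, 2 of 3 mitochondrial and 2 of 7 CCT genes (Cct2 and Cct5). A gene counted, here and over all genes, if any of its listed starts had the motif before it. Cct2, Cct5, Dnaja1 and Hspd1 also had a listed start without the motif. Of 27025 mouse genes with a promoter, 14.5% held it. The longer form with 3 alternating units, GAANNTTCNNGAA or TTCNNGAANNTTC, contains the shorter motif and was present in Dnajb6, Hspd1 and Hspe1, and in 0.514% of all genes. In these genes, all 250 bases of the stretches that held it also lay within exons annotated in GENCODE M21, on either strand. The following 30-base windows show a single motif in the promoter of Hsph1, a stress-inducible HSP110 (chr5:149636351-149636380, minus strand), and the run of units shared by Hspd1 and Hspe1, whose divergent starts use the same bases (chr1:55088053-55088082, plus strand, the strand of Hspe1).
Hsph1: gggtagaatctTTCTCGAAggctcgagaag
Hspe1: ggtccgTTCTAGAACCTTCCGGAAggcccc

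A match is a description of these letters, not a binding site. The genes with a motif did not share a level. Among the 4 stress-inducible genes that held one, Hspb1 was at 0 CPM in all 6 libraries, Hspa1a and Hspa1b were at 0.390 to 7.39 CPM and Hsph1 was at 313 to 385 CPM.

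Of the stress-inducible members, Hsp90aa1 measured 7780, 8196 and 8357 CPM in female replicates 1 to 3 and 7397, 9328 and 6869 CPM in male replicates 1 to 3. It supplied 95.2% to 96.0% of the summed CPM of the 7 members. Male replicate 2 was highest and male replicate 3 lowest, so the males enclosed the females. Hsph1 measured 384, 385 and 344 CPM in females and 349, 379 and 313 CPM in males, with overlapping groups.

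Hspa1b, 1 of the inducible HSP70 genes, measured 6.59, 7.39 and 4.30 CPM in females and 5.55, 6.10 and 3.51 CPM in males. Hspa1a measured 1.46, 0.712 and 0.537 CPM in females and 0.603, 1.52 and 0.390 CPM in males. In each sex, replicate 3 had the lowest value of both genes, and the sexes overlapped. The split between the pair is uncertain, since 63.8% of the 31-base words of Hspa1a also occur in Hspa1b; their sum was 8.05, 8.10 and 4.83 CPM in females and 6.16, 7.62 and 3.90 CPM in males. Bag3, the HSP70 exchange factor of stress-induced autophagy, ranged from 2.26 CPM in female replicate 3 to 4.51 CPM in female replicate 2.

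Dnajb1, the main stress-inducible J-domain partner of HSP70, was listed at 0 in all 3 females and in male replicate 1, and at 0.702 and 0.581 CPM in male replicates 2 and 3. It did not pass the low-count filter of edgeR, and DESeq2, which kept it, did not call it. Hspb1 had 0 counts in all 6 libraries, which allows up to 0.0841 to 0.125 CPM per library. Its processed pseudogene Hsp25-ps1, which shares 56.7% of its 31-base words, was also at 0. Gm9817, which overlaps that pseudogene and is annotated as protein-coding, shares 46.2% of the words of Hspb1 and was listed at 0.0724 to 0.330 CPM. Hsf1, the transcription factor of this response, measured 0, 1.37 and 0.0700 CPM in females and 2.37, 0.895 and 0.725 CPM in males. Its values differed between mice of 1 sex by more than the sexes differed, and female replicates 1 and 3 were the low libraries.

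**Figure D1:**
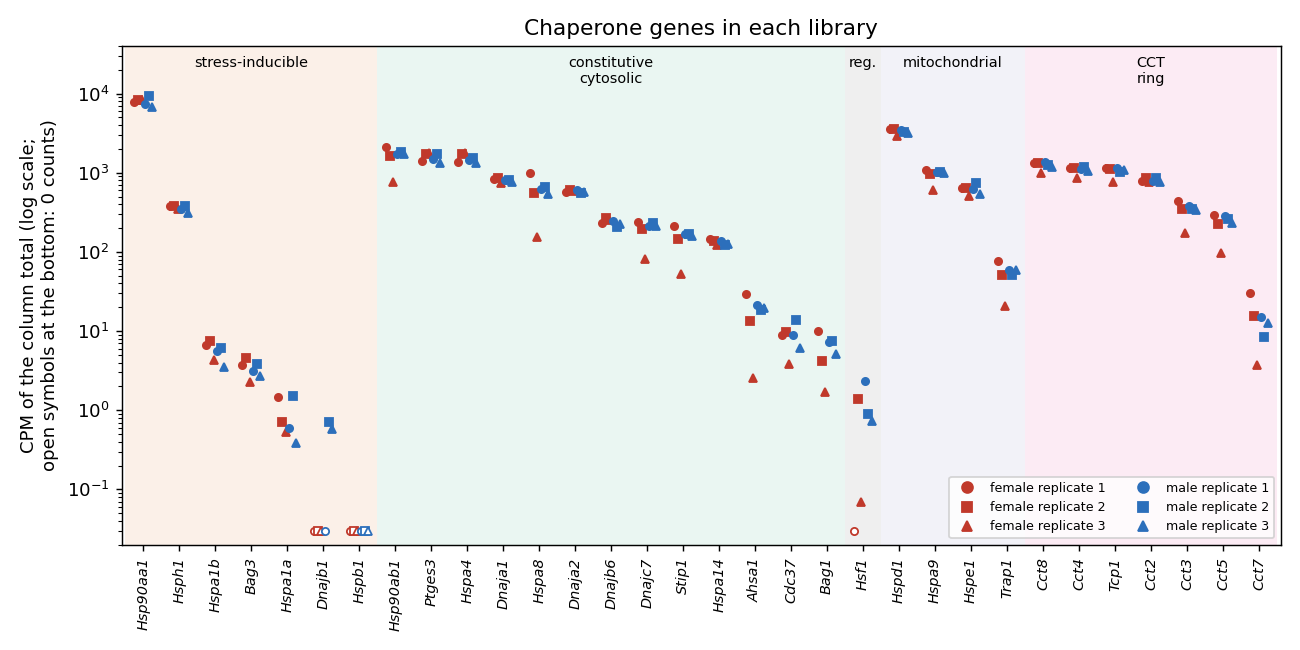
Level of each of the 32 chaperone genes in CPM of the library total on a log axis, with genes grouped by role, 1 symbol per mouse, females in red, males in blue and open symbols at the bottom for 0 counts. Hsp90aa1 sits at 6869 CPM or above in all 6 libraries and Hspb1 at 0, and both are stress-inducible.

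Among the constitutive members, the HSP90 gene Hsp90ab1 measured 2110, 1620 and 766 CPM in females and 1735, 1823 and 1727 CPM in males. Female replicate 3 was the low library, and the other 5 lay close together. The ratio of Hsp90aa1 to Hsp90ab1, in CPM per kb of the longest protein-coding transcript, was 2.83, 3.89 and 8.38 in females and 3.27, 3.93 and 3.05 in males. As deposited, the stress-inducible gene therefore had a higher level than its constitutive counterpart in every library, and the ratio was highest in female replicate 3. The transcripts differ in GC content, at 43.7% for Hsp90aa1 and 51.0% for Hsp90ab1, and the part of GC content in the ratio was not tested. Other genes share 16.6% of the 31-base words of Hsp90ab1, and their counts were not added to it.

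Hspa8, the constitutive HSP70, measured 984, 554 and 155 CPM in females and 632, 664 and 538 CPM in males. Hspa4 measured 1377, 1722 and 1751 CPM in females and 1434, 1517 and 1310 CPM in males. The ratio of Hspa4 to Hspa8 in CPM per kb of the longest protein-coding transcript was 0.726, 1.61 and 5.86 in females and 1.18, 1.18 and 1.26 in males. The males lay close together while the females spread on both sides of them.

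The row of Hspa8 holds only part of the counts that carry its sequence. Gm15459, a processed pseudogene at chr5:5781615-5783555 (GRCm38.p6), shares 74.3% of the 31-base words of Hspa8 and was listed at 616 to 1882 CPM. The lincRNA Gm26825, which covers the same locus (chr5:5781530-5783636), shares 73.4% of them and was listed at 746 to 1583 CPM. Both rows held more counts than Hspa8 itself in all 6 libraries. Over Hspa8 and its 6 copies with a row, the sum was 4395, 3353 and 1518 CPM in females and 3502, 3733 and 2929 CPM in males, of which Hspa8 made up 10.2% to 22.4%.

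With the copies added, the same ratio per kilobase was 0.162, 0.266 and 0.598 in females and 0.212, 0.211 and 0.232 in males. The order of the genes therefore turned in 5 of the 6 libraries, all but female replicate 1, where Hspa8 was already the higher. Female replicate 3 stayed the lowest library for the sum, with the other 5 at 2.36 times its value on average. Dnaja1, a J-domain partner of HSP70, had a similar copy: the processed pseudogene Gm15542 shares 17.4% of its words and was listed at 232 to 317 CPM, beside 745 to 847 CPM for Dnaja1. For Hsp90aa1 the copies hardly counted, and Hsp90aa1 made up 99.8% to 99.9% of the sum.

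**Figure D2:**
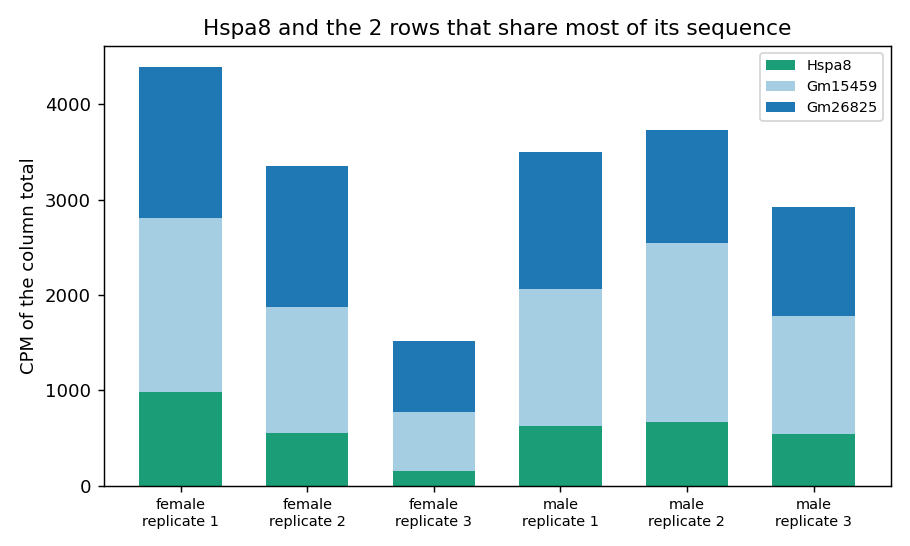
Stacked bars of the CPM of Hspa8 (green) and of Gm15459 and Gm26825 (blues), the rows that share most of its sequence, with 1 bar per mouse. Both copies exceed Hspa8 in all 6 libraries, and the 3 rows are all lowest in female replicate 3.

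The HSP90 cochaperones covered a wide range of levels, from 786 CPM per kb of the longest transcript for Ptges3 through 71.7 for Stip1 and 7.76 for Ahsa1 to 1.09 for Cdc37, as means over the 6 libraries. Ptges3 (p23), which stabilises the closed form of HSP90, ranged from 1322 to 1756 CPM and was highest in female replicate 3. Stip1, which hands clients from HSP70 to HSP90, measured 215, 145 and 53.4 CPM in females and 167, 170 and 157 CPM in males. Ahsa1, the activator of the HSP90 ATPase, measured 29.2, 13.5 and 2.59 CPM in females and 21.5, 18.4 and 19.7 CPM in males. For Stip1 and Ahsa1, the male libraries lay between the highest and the lowest female. Cdc37, the kinase-specific cochaperone, ranged from 3.89 to 13.7 CPM, and Bag1, an HSP70 exchange factor, from 1.70 to 9.95 CPM.

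The constitutive J-domain genes varied less, with 1 exception. Dnaja2 ranged from 555 to 608 CPM and Dnajb6, which suppresses aggregation, from 207 to 265 CPM. Dnajc7, which binds both HSP70 and HSP90, ranged from 196 to 241 CPM in 5 libraries and was at 80.3 CPM in female replicate 3. Hspa14, an HSP70 bound to ribosomes, ranged from 123 to 146 CPM.

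Of the mitochondrial members, Trap1 was the low one per kilobase of the longest transcript, with a mean of 22.9 CPM per kb against 311 to 1376 for the other 3 genes. Hspd1 (HSP60) measured 3593, 3592 and 2889 CPM in females and 3438, 3314 and 3178 CPM in males, and its lid partner Hspe1 (HSP10) measured 638, 643 and 511 CPM in females and 619, 743 and 535 CPM in males. Both were lowest in female replicate 3. The ratio of Hspd1 to Hspe1 per kb of the longest protein-coding transcript was 1.42 to 1.90, and the pair shares 112 exon bases on opposite strands, which matters where strand was not used in counting. Hspa9, the mitochondrial HSP70, ranged from 600 to 1080 CPM and Trap1, the mitochondrial HSP90, from 20.8 to 77.7 CPM, again with the lowest value in female replicate 3.

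The CCT subunits share 1 ring in the protein complex, but the RNA levels of the 7 measured here were far from equal. Cct8 measured 1309, 1316 and 992 CPM in females and 1349, 1270 and 1194 CPM in males. Cct7 measured 30.1, 15.6 and 3.69 CPM in females and 14.9, 8.34 and 12.7 CPM in males. Per kilobase of the longest transcript, Cct8 was at 415 to 563 and Cct7 at 0.950 to 7.76 CPM per kb.

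The other subunits fell into an upper and a lower set. Cct4 (343 to 479 CPM per kb), Cct2 (386 to 440) and Tcp1 (223 to 340) were near Cct8, while Cct5 (52.6 to 160) and Cct3 (52.3 to 134) were lower. The order within each set depended on the transcript length used: per kb of the longest protein-coding transcript, the mean of Tcp1 was 426 and that of Cct2 was 411, and Cct3, at 171, was above Cct5, at 126. Cct7 was lowest on both lengths. Per kb of the longest protein-coding transcript, the ratio of Cct8 to Cct4 stayed within 1.11 to 1.25, whereas that of Cct8 to Cct7 was 44.3, 85.9 and 274 in females and 92.3, 155 and 95.5 in males. Overlapping antisense exons were annotated for Tcp1 (571 bases of Acat3 and 141 of Mrpl18), Cct7 (214 bases of Pradc1) and Cct8 (192 bases of Usp16).

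**Figure D3:**
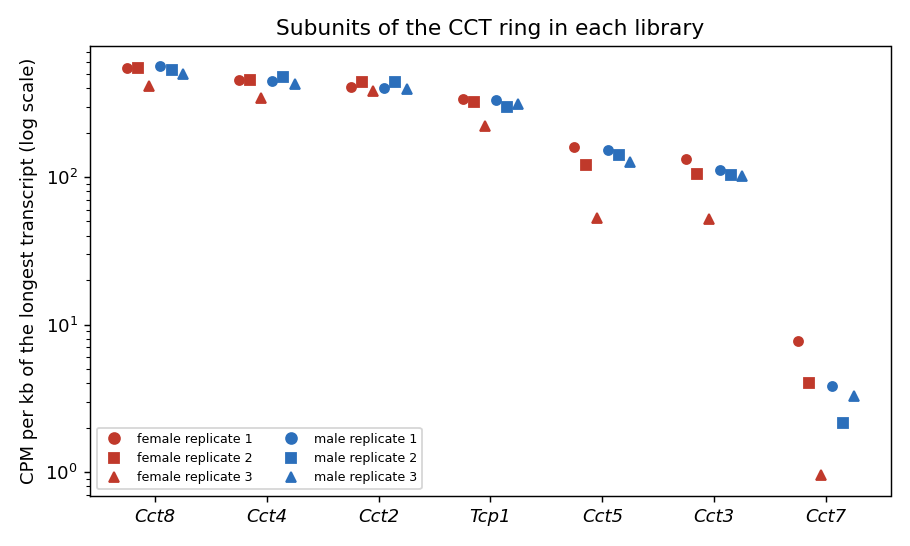
Level of each of the 7 CCT subunits in each library in CPM per kb of the longest transcript, on a log axis, with 1 symbol per mouse, females in red and males in blue. Cct7 lies below the other 6 subunits in all libraries, and female replicate 3 holds the lowest point of each subunit.

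The roles were compared as levels per kilobase of the longest transcript, averaged over the 6 libraries and without a test. The median was 1.31 CPM per kb over the stress-inducible, 84.2 over the constitutive, 474 over the mitochondrial and 305 over the CCT genes. With the median transcript length, the CCT median (1265) was above the mitochondrial one (920.3). Hsp90aa1 led all members at 2435 ± 259 CPM per kb (SD, n = 6), followed by Hspd1 at 1376, Ptges3 at 786, Hsp90ab1 at 647 and Hspe1 at 638. Hsph1 was at 75.4, within the lower range of the constitutive genes, and the remaining stress-inducible genes were at 1.99 CPM per kb or lower. The stress-inducible class thus had the highest member and the lowest median of the 4 classes. In summed CPM, it ranged from 7189 to 9718, the constitutive class from 6286 to 8148, the mitochondrial from 4020 to 5389 and the CCT ring from 3638 to 5174. The stress-inducible sum was above the constitutive one in every library as deposited. With the counts of pseudogene copies added, the constitutive sum was 7881 to 11863 CPM and the stress-inducible sum 7197 to 9732 CPM (7881 against 8718 CPM in female replicate 3), so the order turned in the other 5 libraries.

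Females were compared with males across 12172 genes that passed the low-count filter, by edgeR's quasi-likelihood test with Benjamini-Hochberg adjustment. The test called 7 genes (0.0575%), of which 3 were higher (0.0246%) and 4 lower (0.0329%) in females, and 2.89% had an unadjusted p under 0.05. Of the 30 members tested, 0 were called and 0 had an unadjusted p under 0.05. DESeq2, which called 0.19% of its genes, and limma-voom, which called 0.0739%, also called 0 members. Each had 1 member at an unadjusted p under 0.05, Dnajb1 in DESeq2 and Hsf1 in limma-voom. The smallest unadjusted p of a member in edgeR was 0.129 (Dnajb6), with an adjusted p of 0.999. Leaving out female replicate 1 put 5 of 31 members at an unadjusted p under 0.05 in edgeR (Bag1, Dnajb1, Dnajb6, Hspa4 and Ptges3), with a lowest adjusted p of 0.405. Removing the trend of counts with GC and transcript length put Hspa14 and Hspd1 there, and leaving out female replicate 2 put Dnajb1 and Hsf1 there. Dnajb1 alone was there without male replicate 1 and without the low-count filter. The 2.89% of all genes under 0.05 belongs to the main edgeR fit. Such a share is not given for the other fits, so their member counts cannot be set against it. In edgeR without female replicate 1, Bag1 had an adjusted p of 0.405 at an unadjusted p of 0.044, and Ptges3 0.409 at 0.047. Under the Benjamini-Hochberg adjustment, such values require a share of all genes under 0.05 well above 2.89%. The 5 of 31 members can therefore not be read as an excess. The design could not exclude moderate differences: the standard error of the log2 fold change was 0.21 for Hsp90aa1 and 0.48 for Hspa8.

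By direction, 18 of the 30 members had a positive log2 fold change (higher in females), with a median of 0.050, beside 50.1% positive and a median of 0.00095 over all tested genes. All 5 tested stress-inducible genes were positive, between 0.19 (Hspa1a, SE 0.61) and 0.39 (Hspa1b, SE 0.31), with a median of 0.24. Across the alternative fits that median ranged from 0.097 with library totals only to 0.37 without male replicate 2, and without male replicate 3 it was 0.13. Hspa1a turned negative when female replicate 1, male replicate 1 or male replicate 3 was left out, at -0.21 to -0.0061, while the other 4 stayed positive in every fit that held them. Dnajb1, which is not among the 5, was lower in females in each fit that kept it, with an unadjusted p of 0.0064 and an adjusted p of 0.801 in DESeq2. Hsp90aa1 was at 0.20 (SE 0.21) and Hsph1 at 0.24 (SE 0.14). The constitutive genes split into 6 positive and 7 negative, from 0.35 for Hspa4 (SE 0.21) to -0.37 for Ahsa1 (SE 0.62). Of the CCT subunits, 5 of 7 were positive, from 0.50 for Cct7 (SE 0.58) to -0.26 for Cct5 (SE 0.29), and 2 of 4 mitochondrial genes were. Hsf1 had the most negative value at -1.39 (SE 1.24).

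These signs moved with scaling. With library totals alone, the median of all genes was -0.12 and 13 of 30 members were positive, among them 1 of the 7 CCT subunits. Without female replicate 3, 28 of 31 members were positive with a median of 0.092, beside 52.4% of all genes and a median of 0.014. There, edgeR called 0.0961% of genes and 0 members, with Cct7 and Dnajb1 at an unadjusted p under 0.05, for which no share over all genes is given. On TMM-scaled CPM, the sexes did not overlap for 2 members, beside 9% of all tested genes. Hspa14 measured 136, 138 and 151 in females and 129, 117 and 122 in males, and Hspd1 measured 3365, 3620 and 3541 in females and 3267, 3157 and 3047 in males. On CPM of the library total, the sexes overlapped for both genes.

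**Figure D4:**
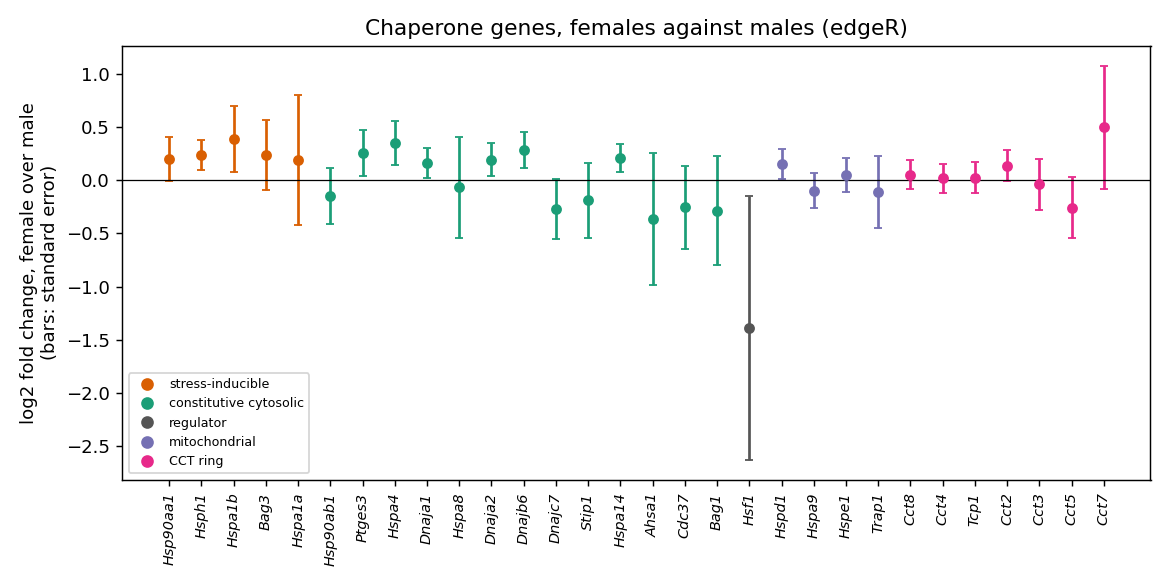
Log2 fold change of females over males for the 30 tested members, grouped by role, with bars of 1 standard error from the edgeR fit. Most bars cross 0, and the 5 stress-inducible genes lie between 0.19 and 0.39.

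Female replicate 3 was the lowest library in CPM for 20 of the 30 tested members (66.7%), beside 51.2% of all tested genes. On this scale it was lowest for all 7 CCT subunits, all 4 mitochondrial members and 8 of 13 constitutive genes, but for 1 of the 5 stress-inducible genes (Bag3). The counts depended on the scaling. On TMM-scaled CPM, it was lowest for 13 of the 30 members, beside 34.9% of all tested genes, with 4 of 7 CCT, 2 of 4 mitochondrial, 7 of 13 constitutive and 0 of 5 stress-inducible genes among them. It was there the highest library for 9 members, beside 30.2% of all tested genes, Hsp90aa1, Hsph1, Hspa4 and Cct2 among them. Measured as log2(CPM + 0.1) minus the mean of the other 5 libraries, its median deviation was -0.54 over members and -0.38 over all tested genes. With TMM scaling these medians were -0.21 and -0.036. On the unscaled values, the deviation was -2.89 for Ahsa1, -2.21 for Hsf1, -2.09 for Hspa8 and -1.99 for Cct7, while Hspa4 (0.26) and Ptges3 (0.20) were higher there than in the other 5 on average. TMM scaling left Ahsa1 at -2.55, Hsf1 at -2.04, Hspa8 at -1.74 and Cct7 at -1.65.

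Female replicate 3 was the lowest library in CPM for 12 of the 16 members with at least 50% GC in the longest protein-coding transcript. It was also lowest for 8 of the 14 others. Over all tested genes, these counts were 3659 of 4966 and 2501 of 7052. On the longest transcript, Ahsa1 (47.2%), Hspa8 (45.9%) and Cct7 (44.9%), which were far lower there, fell under 50%. Across the 30 members, the rank correlation of the deviation with the GC content of the longest protein-coding transcript was -0.65, and across 12018 tested genes it was -0.59. With the GC content of the longest transcript instead, these were -0.39 and -0.58, and the protein-coding transcript was chosen after values were seen. The points share the same 6 libraries, and genes are not independent replicates. The 16 members with at least 50% GC had a median deviation of -1.43, and the 14 below 50% had one of -0.12. Over all tested genes, the same sides had medians of -0.97 and -0.095. With TMM scaling, the low-GC side turned positive: the medians were -1.07 and 0.23 over members and -0.65 and 0.25 over all tested genes. The GC-rich side was the lower on both scales, in members and in all genes.

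The sex difference moved with the same split. Of the 16 GC-rich members, 6 had a positive log2 fold change and the median was -0.13, whereas 12 of the 14 others were positive with a median of 0.16. Without female replicate 3, 14 of 16 and 14 of 14 were positive, with medians of 0.12 and 0.079. Over all tested genes, 1793 of 4966 GC-rich genes were positive (median -0.11), beside 4238 of 7052 others (median 0.069). Without female replicate 3, these were 2964 of 4954 (median 0.067) and 3344 of 7031 (median -0.013). Levels too were lower in GC-rich members, with a rank correlation across genes of -0.76 between CPM per kb of the protein-coding transcript and GC over 32 genes, beside -0.35 over the 12018 tested genes. On the longest transcript, these were -0.71 and -0.35. The sets are unlike: the 32 genes include Dnajb1 and Hspb1 (0 CPM at 61.7% GC), which did not pass the low-count filter, whereas the 12018 genes did. Hspa1a and Hspa1b were the members highest in GC among those tested, at 58.9% and 58.1%, and Cct7, at 54.0%, was the highest of the CCT subunits on the protein-coding transcript. On the longest transcript Cct7 was at 44.9% and Cct5, at 50.2%, was the highest. The part of GC content in these levels was not tested.

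**Figure D5:**
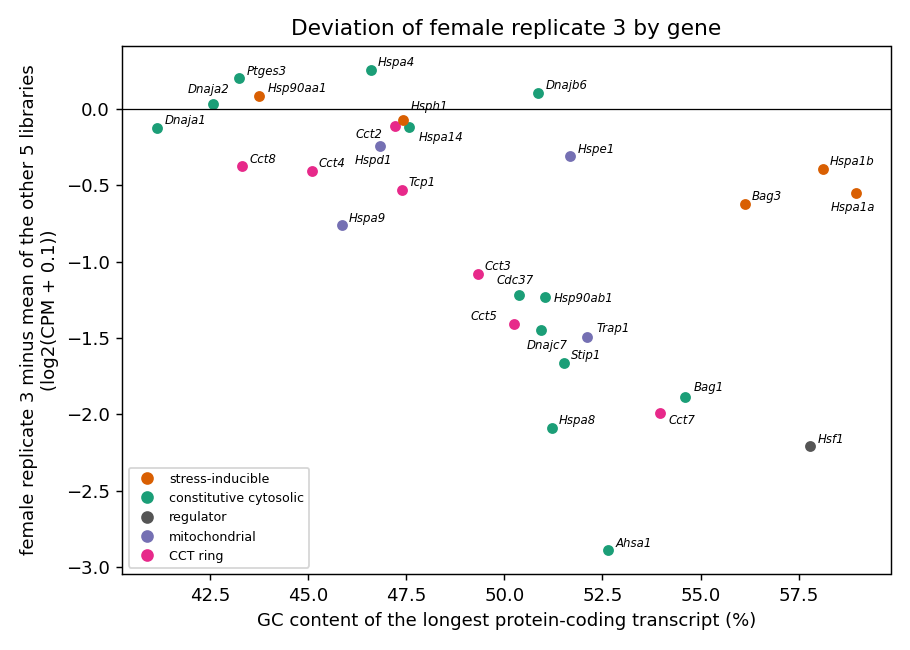
Deviation of female replicate 3 from the mean of the other 5 libraries, in log2(CPM + 0.1), against the GC content of the longest protein-coding transcript, for the 30 tested members coloured by role. The points fall from near 0 at low GC to -2.89 for Ahsa1, and the stress-inducible genes at the highest GC lie above that trend.

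The spread between mice also differed by role. Over the 6 libraries, the median SD of log2(CPM + 0.1) was 0.354 for stress-inducible, 0.518 for constitutive, 0.256 for mitochondrial and 0.225 for CCT genes, beside 0.389 for all tested genes. Without female replicate 3, these were 0.276, 0.152, 0.123, 0.0740 and 0.274, in the same order. Among the 3 males alone, they were 0.241, 0.107, 0.0867, 0.0848 and 0.222. By these medians, the CCT and mitochondrial genes were the steadiest in the 5 other libraries and in males. Their lowest members were less steady, with an SD over the 5 other libraries of 0.664 for Cct7 and 0.249 for Trap1. The stress-inducible genes were near the value of all genes, with 3 of the 5 at under 10 CPM, where counting error is larger. Classes and all genes were not matched for level, so the part of level in this order was not tested.

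Other genes of the folding machinery were taken from 3 lists. Of 16 further HSF1-target and HSP70 or small heat-shock genes, 13 were tested, 9 were positive with a median log2 fold change of 0.19, and edgeR called 0. The 2 with the smallest p were Hspb6, a small heat-shock protein, at 1.38 ± 0.326 CPM in females and 2.35 ± 0.319 CPM in males (SD, n = 3 each), and Chordc1, an HSP90-binding protein, at 798 ± 194 CPM and 640 ± 67.6 CPM. Of 28 further HSP70 and HSP90 cochaperones, 27 were tested and 11 were positive, with a median of -0.095 and 0 called. Dnajb14 measured 22.0 ± 1.93 CPM in females and 19.7 ± 3.06 CPM in males, and Bag5 measured 25.1 ± 3.19 CPM and 19.2 ± 8.75 CPM.

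Of 10 genes of prefoldin and the CCT cochaperones, which deliver clients to the ring or regulate it, 9 were tested, 5 were positive with a median of 0.16, and 0 were called. Pdcl, a phosducin-like CCT cofactor, measured 78.3, 97.5 and 140 CPM in females and 81.5, 85.8 and 82.4 CPM in males, and Pdcl3 measured 25.9 ± 3.32 CPM and 23.9 ± 1.88 CPM. In all 3 lists, 0 genes had an unadjusted p under 0.05 in edgeR.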

How the data were processed

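RNA of splenic B cells stimulated with CpG was sequenced in 3 female and 3 male mice. The authors deposited estimated counts per gene, which need not be whole; kallisto and DESeq2 with GRCm38.p6 are named, per the submitters' processing notes. Versions, annotation, strand and settings were not given in the sources used here. These deposited estimated counts were divided by library totals for CPM and rounded to whole numbers for tests.

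Sexes were compared with edgeR 4.0.16 (R 4.3.3): filterByExpr, TMM, then glmQLFit and glmQLFTest with a term for sex alone. P-values were adjusted by Benjamini-Hochberg over 12172 genes and called at an FDR of 0.05. Standard errors are the log2 fold change over the square root of F. Alternatives were DESeq2 1.42.0, limma-voom 3.58.1, other scalings and filters, a replicate block, each library left out, and removal of a length and GC trend. Lengths, GC content, 31-base words and overlaps are from GENCODE M21, and the symbol Adgre1 was found as Emr1. Floors cover counting error only.

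Members, lists and tests were chosen with earlier results of these data known. All members are named, and of each further list the called genes or the 2 with the smallest p. The sums with pseudogene copies, the protein-coding transcript and the GC split were chosen after values were seen. Cct6a was not analysed here.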

Additional observations from a re-analysis of the deposited data

How the results depend on the processing

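No chaperone gene was called in any of the 16 alternative fits. The number of genes called over the whole table was 7, against 32 with DESeq2, 11 without the low-count filter, 11 with the length and GC trend removed, and 4 to 12 with 1 library left out. The cause was not tested. With library totals only, the median log2 fold change was -0.13 for mitochondrial, -0.094 for CCT and -0.079 for all members. Removing the length and GC trend gave a mitochondrial median of 0.082, and it was -0.064 to 0.088 with 1 library left out.

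Levels depended on the transcript length chosen. With the median transcript length, the median CPM per kb was 299 for constitutive, 920.3 for mitochondrial and 1265 for CCT genes, and with the longest protein-coding transcript it was 553 for mitochondrial and 411 for CCT genes. With the pseudogene copies added, an alternative chosen after seeing the data, the constitutive genes summed to 10378 CPM as a mean over the 6 libraries. The median SD of log2 CPM on TMM-scaled values was 0.163 for mitochondrial and 0.135 for CCT genes. With 1 library left out it was 0.152 to 0.578 for constitutive, 0.123 to 0.284 for mitochondrial, 0.0740 to 0.251 for CCT and 0.163 to 0.368 for all members. The lowest value of each came without female replicate 3.

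The replicate numbers were checked for pairing. Deviations of same-numbered females and males correlated at 0.22, 0.042 and 0.070, and those of differently numbered ones at -0.21 to 0.12. With 3 mice per sex, these values cannot decide whether same-numbered mice share anything besides the number, and the labels do not say. With the replicate number as a block, 7 genes and 0 members were called. The depth limits Dnajb1, Hspb1 and Hsf1, which were below the floor of 3 counts in some libraries.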
